A study of Pan paniscus with 11 samples.

Results

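The genes described here encode the nuclear-encoded subunits of the oxidative phosphorylation machinery of mitochondria: complexes I to V and cytochrome c. Members were taken by gene symbol. A probe set with a single symbol belonged if that symbol started with NDUFA, NDUFB, NDUFC, NDUFS, NDUFV, UQCR, ATP5 or COX4 to COX8, or was SDHA, SDHB, SDHC, SDHD, CYC1 or CYCS. This gave 70 probe sets for 62 genes, out of 10943 probe sets with 1 symbol for 8226 symbols. Of the 62 genes, 24 belonged to complex I, 3 to complex II, 6 to complex III, 13 to complex IV, 15 to complex V and 1 was cytochrome c. The prefix also took in NDUFAF1 and NDUFAF3, which are assembly factors of complex I and not subunits of it.

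The cells were cultured fibroblasts of the bonobo (Pan paniscus), an African great ape, profiled on 11 Affymetrix arrays whose probes are annotated to human genes. Fibroblast lines from 10 normal animals were grown and harvested under standard conditions, with 1 culture per line. The 5 female lines, numbered 1 to 5, came from animals aged 9, 2, 4, 20 and 20 years. The 5 male lines, numbered likewise, came from animals aged 4, 2, 12, 17 and 19 years. The remaining array measured another culture of male line 1, from the animal aged 4 years, harvested at 50% confluence. The labels do not say how dense the standard cultures were, nor at which passage any culture was taken.

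Oxidative phosphorylation moves electrons from NADH and succinate along the inner mitochondrial membrane to oxygen and uses the resulting proton gradient to make ATP. Complex I takes electrons from NADH and complex II from succinate, and both pass them to ubiquinone. Complex III hands them to the mobile carrier cytochrome c, complex IV reduces oxygen, and complex V is the ATP synthase. Most subunits are encoded in the nucleus, whereas a small set of core subunits is encoded in mitochondrial DNA and has no member here. Cultured fibroblasts draw on both glycolysis and respiration for ATP.

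Intensities are given on the deposited linear scale, where values at or under 100 were set to 100, called the floor, and have no order. Array means after trimming ran from 405 to 418, and the share of probe sets exceeding the floor from 52.1% to 60.9%. All 10 fibroblast markers measured exceeded the floor in each of the 11 cultures, and their summed intensity ran from 80979 to 119469 over the lines and was 101885 at 50% confluence. Of the markers of other cell types, KRT10 among 8 of keratinocytes and CD3E among 6 of blood cells were above the floor in every culture. None of the 6 endothelial, 4 melanocyte, 9 striated muscle or 4 adipocyte markers was. The keratinocyte marker KRT1 was above the floor in all 10 lines, at 103 to 301, and at the floor at 50% confluence. The ACTB 3' to 5' control ratio, a measure of RNA integrity, lay between 0.853 and 1.44 in 9 lines, and was 2.27 in male line 4 and 0.669 at 50% confluence. The controls for 18S ribosomal RNA were at 100 in 8 lines, up to 171 in male line 2, 146 to 313 in male line 4 and 1508 to 2611 at 50% confluence. Each array measures the RNA of a whole culture, so fewer cells carrying a transcript and less of it per cell cannot be told apart.

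The machinery was well detected. Of the 62 genes, 57 had a probe set that exceeded the floor in 5 or more arrays and entered the tests, beside 5370 of all 8226 symbols. In every array, 54 were above the floor through their brightest probe set. By probe set, 59 of 70 members were above the floor in every array, beside 4540 of all 12558. The set of genes that passed was formed by the detection rule itself and its counts describe only those genes. A level cannot be set against that of another gene on such arrays, because probe sets differ in how well they bind.

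In complex I, 23 of 24 genes passed. The peripheral arm, where NADH is oxidised, was represented by core subunits that carry the cofactors. NDUFV1, which binds NADH and the flavin, ran from 1252 to 2731 over the 10 lines with a median of 1999. NDUFV2, an iron-sulfur subunit that pairs with it, ran from 923 to 1639 around 1203.5. NDUFS1, the large iron-sulfur subunit, ran from 261 to 749 around 520.5. NDUFS3 and NDUFS7, core subunits of the arm towards ubiquinone, had medians of 1209.5 and 1074.5. The remaining structural subunits are accessory, and of these NDUFA1 had the highest median intensity of the complex I probe sets, at 3991 with a range of 2364 to 7265. NDUFAB1, the mitochondrial acyl carrier protein, ran from 799 to 2007. NDUFC1, a small subunit of the membrane arm, ran from 2559 to 4934, and NDUFB8 from 1489 to 3826. NDUFS4, NDUFS5 and NDUFS6, accessory subunits outside the membrane, had medians of 1284, 1779.5 and 478.5. The medians of the other accessory subunits, NDUFA2, NDUFA5, NDUFA6, NDUFA7, NDUFA9, NDUFB1, NDUFB3, NDUFB5 and NDUFB7, lay between 250 and 2102. The assembly factors NDUFAF1 and NDUFAF3 had medians of 238 and 1377.5, and NDUFAF1 was at the floor in female line 1. NDUFB6, an accessory subunit, did not pass: it read 122 in male line 4, 107 in male line 5 and 100 elsewhere.

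All 3 complex II genes with a member probe set passed. SDHB, the iron-sulfur subunit of the enzyme, had none, so complex II is described here without it. SDHA, the flavoprotein that oxidises succinate, ran from 1376 to 2427 over the lines. SDHC and SDHD, the membrane anchors of the enzyme, ran from 719 to 1322 and from 497 to 904. The Rieske protein gene of complex III, UQCRFS1, had no member probe set either. The 6 complex III genes with a member probe set passed as well. Among them were CYC1, the haem-bearing cytochrome c1, which ran from 1227 to 3072, and the core proteins UQCRC1 and UQCRC2, which ran from 2132 to 5005 and from 271 to 966. The small subunit UQCRQ had the highest median in complex III, at 5177. Complex IV had all of its 13 genes above the detection limit in at least 5 arrays, with COX6A1 at the highest median, 11759. COX5A, which binds next to subunit 4, ran from 986 to 1828 over the lines, and COX6B1 from 2101 to 5154.

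Complex V was the complex with most genes at the floor, since 4 of its 15 genes did not pass. ATP5F1B encodes the catalytic beta subunit of the ATP synthase. It read 267 in female line 3, 115 in male line 2, 146 in male line 4, 298 at 50% confluence and 100 in the other cultures. Its partner ATP5F1A, the alpha subunit, ran from 1729 to 2969 through its own probe set. ATP5MF and ATP5MG, small subunits of the membrane part, were above the floor in 2 cultures each, with highest values of 117 and 191. Of the 3 genes for subunit c, whose ring turns as protons pass, ATP5MC1 and ATP5MC3 ran from 1930 to 3436 and from 1559 to 3308. The other, ATP5MC2, was near the floor through both of its probe sets, with a highest value of 140. How well probes made on human sequence bind these bonobo transcripts was not tested. ATP5PO, which joins the catalytic head to the peripheral stalk, ran from 1328 to 4497, and the stalk subunits ATP5PD and ATP5PF from 1747 to 3756 and from 302 to 559. ATP5PB, subunit b of that stalk, stayed close to the floor, with a median of 132 and a highest value of 255. Through its brighter probe set, ATP5ME, subunit e, had the highest median in complex V, at 6785. Its other probe set had a median of 3283.5, under the 4267 of ATP5F1D through its own brighter probe set.

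Isoforms with a known tissue preference were measured in complex IV. COX6A and COX7A each have a form used mainly in heart and skeletal muscle and a form used elsewhere. The muscle form COX6A2 read 224, 228, 280, 213 and 148 in female lines 1 to 5 and 302, 186, 194, 211 and 151 in male lines 1 to 5. It was at the floor at 50% confluence. The muscle form COX7A1 read 1567, 702, 847, 1111 and 819 in the female lines and 1552, 1082, 595, 1013 and 1025 in the male lines, and 1813 at 50% confluence. Both were thus above the floor in every standard line, with overlapping female and male values. None of the 9 striated muscle markers measured was above the floor in all cultures, and ACTN2 and MYH7 were at the floor throughout. However, MYOG, a transcription factor of muscle differentiation, was above the floor in 9 of 10 lines, at 116 to 405, and TNNT3, a troponin of skeletal muscle, in 9 of 10 lines, at 144 to 277, and at 169 in the 50% confluence culture. Over the lines ACTA1 ran from the floor to 348, MYH2 to 191, TNNI1 to 184, MB to 163 and CKM to 105. The summed muscle markers ran from 1004 to 1707 over the lines and were 971 at 50% confluence. The blood cell marker CD3E read 118 to 290 in the same lines. Whether readings in this range, those of COX6A2 and MYOG included, reflect the named transcript was not tested. The general forms COX6A1 and COX7A2 ran from 8021 to 13461 and from 3783 to 8947. COX4I1, the common form of subunit 4, ran from 2918 to 7038.

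The spread of the subunits between animals was close to that of other genes. Over the 10 lines, 55 genes were above the floor throughout, and the median standard deviation (SD) of their log2 intensity was 0.37, beside 0.39 for the 3514 genes of the array above the floor in all lines. The same value was 0.31 for genes of cytosolic ribosomal proteins, 0.27 for proteasome subunits and 0.29 for glycolytic enzymes. By complex the median SD was 0.37 in complex I, 0.28 in complex II, 0.48 in complex III, 0.37 in complex IV and 0.35 in complex V. The smallest SDs were those of ATP5MC1 (0.22), ATP5F1C, the gamma subunit that forms the rotor shaft (0.23), SDHC (0.24), NDUFS3 (0.24) and COX6A1 (0.24). The largest belonged to CYCS (1.26), followed by ATP5MJ, a small proteolipid of the ATP synthase (0.87), NDUFA6 (0.63), NDUFB7 (0.62) and COX7C (0.61). This order used the brightest probe set of each gene. Through another probe set the SD was 0.70 for ATP5ME, 0.63 for COX5B and 0.53 for NDUFB7, beside 0.37, 0.29 and 0.62 through the brightest.

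CYCS, which encodes cytochrome c, was the single member with an SD over 1 log2 unit. Its intensities were 2699, 2832, 5219, 3595 and 4614 in female lines 1 to 5. They were 432, 2011, 3496, 667 and 783 in male lines 1 to 5. Male lines 1, 4 and 5 lay far under all female lines, whereas male line 3 lay within the female range. The culture of male line 1 at 50% confluence read 585, so both cultures of that animal lay below every other line.

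The subunits shared a pattern over the lines. Each gene was set against its own mean log2 intensity over the 10 lines, and the median of these deviations was taken for each line. Male line 3 stood at -0.37 and female line 4 at -0.36, with 45 and 43 of the 55 genes below their own mean. At the other end, male line 5 stood at 0.22, female line 1 at 0.19 and male line 4 at 0.18. The other lines lay between -0.06 and 0.15. Medians over all genes lay between -0.03 and 0.07. The GAPDH 3' to 5' control ratio was 0.749 in male line 3 and 0.710 in female line 4. It was 1.67 in male line 4 and 1.33 in male line 5. Other lines did not follow this order: the ratio was 0.867 in female line 1. It was lowest in male line 2, at 0.691, where the members' median was -0.02. The part of RNA quality in the pattern was not tested. Male line 3 had the lowest value of 19 of the 55 members and female line 4 of 16, or 34.5% and 29.1%, beside 8.68% and 9.79% of all genes. The highest value of a member fell most often in male line 4 (14 members, 25.5%), male line 5 (12, 21.8%) and female line 1 (10, 18.2%). The same 3 lines most often held the highest value over all genes, at 17.0%, 12.4% and 14.1%. These low and high lines were spread over both sexes. The low lines came from animals aged 12 and 20 years, and the high lines from animals aged 9, 17 and 19 years. Female line 5, also from an animal aged 20 years, stood at 0.15.

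**Figure D1:**
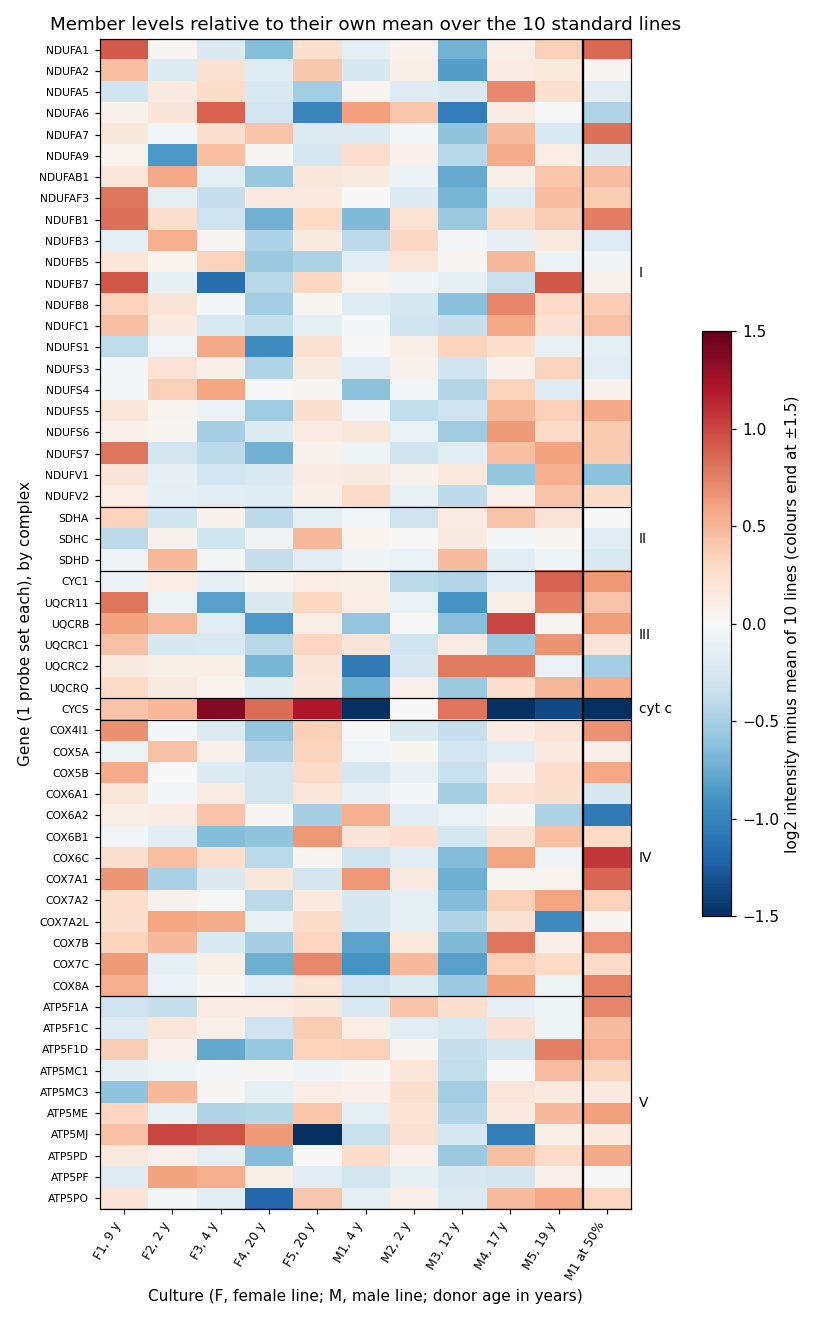
Each row is 1 of the 55 genes above the floor in all 10 lines, by complex, and each column is 1 culture; colour gives the log2 intensity minus the gene's mean over the 10 standard lines, with colours ending at ±1.5. Male line 3 and female line 4 are blue in most rows, with median deviations of -0.37 and -0.36, and the CYCS row runs against them.

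Within that pattern the complexes did not all go together. In male line 3 the median deviation was -0.41 in complex I, -0.50 in complex III, -0.50 in complex IV and -0.30 in complex V, and all 13 complex IV genes lay below their own mean. The 3 complex II genes lay above theirs in the same line, with a median of 0.13, and so did CYCS. In female line 4, complex II was low too, with 3 of 3 genes below their mean and a median of -0.36. Male line 5 was highest in complex III, at 0.58. Under quantile normalization, median centring or a pseudocount these medians kept their sign, and the median over all members ran from -0.39 to -0.32 in male line 3 and from -0.41 to -0.33 in female line 4. Median centring shifted male line 4 by 0.12, and the members' median there then ran as low as 0.06. Genes of cytosolic ribosomal proteins had medians of -0.48 in male line 3, -0.33 in female line 4 and 0.38 in male line 5. Proteasome subunits stood at -0.17 in male line 3, and glycolytic enzymes at 0.14.

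Pairs of members were correlated over the 10 lines as a description of this pattern. All points share the same 10 arrays and their scaling. The median Pearson r was 0.27 over 1485 pairs, with 72.5% of pairs positive, beside 0.00 over pairs of all genes. It was 0.48 within complex IV, 0.43 within complex III, 0.34 within complex I and 0.13 within complex V. Leaving out male line 5 brought complex III to 0.15, and leaving out male line 3 brought complex V to 0.02. Quantile normalization brought complex V to 0.06. Between complexes I and IV it was 0.38. Complex II had a median r of 0.03 with the other members, which ran from -0.09 without female line 4 to 0.19 without male line 3 and was 0.13 after median centring. Ribosomal protein genes had a median r of 0.70 among themselves and of 0.44 with the members, or 0.40 and 0.31 under quantile normalization. The value among proteasome subunits was 0.12 and among glycolytic enzymes 0.16. After median centring these were 0.28 and 0.30, beside 0.33 for the members.

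COX7A2 was most like the other members, with a median r of 0.57, followed by COX4I1 (0.55), NDUFA1 (0.55), COX5B, a zinc-binding subunit of complex IV (0.54), and ATP5ME (0.53). COX7A2 read 7114, 6184, 5890, 4479 and 6548 in the female lines and 5021, 5405, 3783, 7580 and 8947 in the male lines. COX4I1 read 7038, 4280, 3796, 2918 and 5577 in the female lines and 4369, 3749, 3448, 4752 and 5048 in the male lines. Both were lowest in their sex in female line 4 and male line 3. A median r below 0 was found for 6 genes: ATP5F1A (-0.28), the muscle form COX6A2 (-0.21), CYCS (-0.18), ATP5MJ (-0.15), SDHC (-0.06) and SDHD (-0.04). ATP5F1A read 1784, 1729, 2410, 2414 and 2503 in the female lines and 1889, 2969, 2636, 2033 and 2107 in the male lines, so that female line 4 and male line 3 were not low for it.

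**Figure D2:**
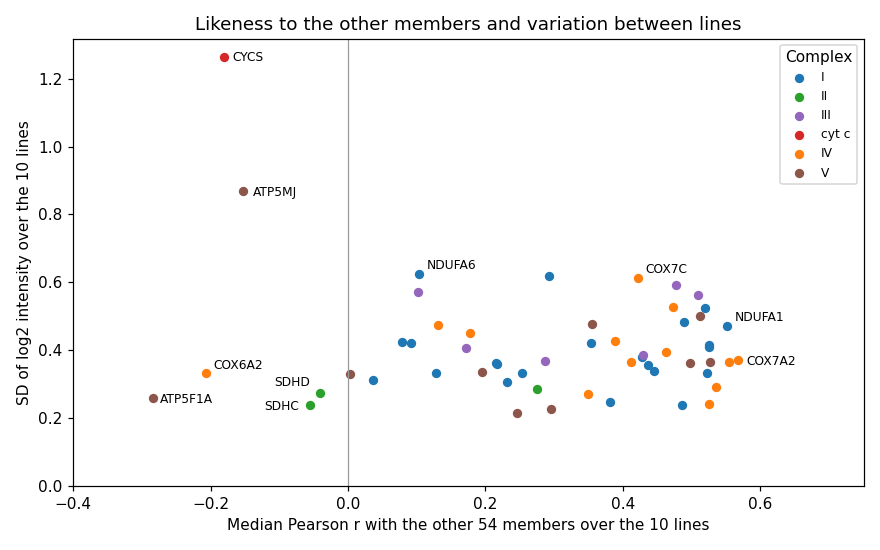
Each point is 1 of the 55 members above the floor in all 10 lines; the horizontal axis is its median Pearson r with the other 54 members and the vertical axis the SD of its log2 intensity over the lines. CYCS stands at an SD of 1.26 and a median r of -0.18, and most other members lie to the right of 0.

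No subunit differed between female and male lines after correction. The limma fit on log2 intensity, with age as a covariate, called 0 of the 62 member probe sets at a Benjamini-Hochberg adjusted p under 0.05, against 2 of 7333 probe sets overall (0.0273%). At an unadjusted p under 0.05 there were 2 members, CYCS and COX7A2L, against 171 probe sets overall (2.33%). The 62 member probe sets divided into 33 with higher and 29 with lower estimates in males, with a median of 0.02 on the log2 scale beside 0.00 over all. This split turned on single lines: it was 20 higher and 42 lower, with a median of -0.10, without female line 4, 40 and 22 (0.09) without male line 3, and 23 and 39 (-0.09) without male line 5. No member gene had female lines wholly above male lines, which 6 of 5370 genes had (0.112%), and none had the reverse, which 10 of 5370 had (0.186%). Each animal gave 1 line, cultured once, so the p-values rest on differences among lines that may be partly technical.

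CYCS had the lowest p among the members. Its mean intensity was 3792 ± 1103 (SD, n = 5) in the female lines and 1478 ± 1284 (SD, n = 5) in the male lines, with the values given above. The age-adjusted male minus female difference was -1.74 ± 0.46 (SE) log2 units with an unadjusted limma p of 0.00198 and an adjusted p of 0.9999. Over 19 alternatives the estimate ran from -2.16 to -1.36, with the smaller size when male line 1 was left out, and the lowest adjusted p was 0.160, when male line 3 was left out. The difference therefore did not pass correction in any fit.

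COX7A2L, which helps join complexes III and IV into supercomplexes, came next. It read 1013, 1290, 1265, 796 and 1039 in female lines 1 to 5, and 728, 778, 630, 1005 and 444 in male lines 1 to 5. The groups overlapped through female line 4 and male line 4, with the mean at 1081 ± 203 (SD, n = 5) in females and 717 ± 205 (SD, n = 5) in males. Its estimate was -0.63 ± 0.23 (SE), with an unadjusted limma p of 0.0171 and an adjusted p of 0.9999. The other members of lowest p were NDUFS4, an accessory subunit of the peripheral arm of complex I, at -0.38 ± 0.22, ATP5F1D through the less intense of its probe sets at 0.35 ± 0.24, and COX6B1, a complex IV subunit facing cytochrome c, at 0.33 ± 0.24. Their unadjusted p-values were 0.111, 0.171 and 0.1997. The COX6B1 estimate ran from 0.16 without female line 4 to 0.53 without female line 5, and that of ATP5F1D was 0.21 without female line 3.

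By complex, the estimates for sex leaned in different ways without any passing the test. In complex IV, 11 of 13 genes had lower estimates in males, with a median of -0.13. With each line left out in turn that median ran from -0.28, without female line 4, to -0.04, without male line 3. All 3 complex II genes and 8 of 11 complex V genes had higher estimates in males, with medians of 0.08 and 0.10. The complex II median ran from 0.02, without female line 1, to 0.14, without female line 2, and 2 of its 3 genes were higher without female line 1, female line 4 or male line 3. Complex I had 14 higher and 9 lower with a median of 0.06. With each line left out in turn, the complex I median ran from -0.06 to 0.15 and the complex V median from -0.01 to 0.20, so both signs depended on which lines were included.

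Age gave no calls among the members either. The same limma fit called 0 member probe sets for age at an adjusted p under 0.05, as it called 0 overall (0%), and 2 members had an unadjusted p under 0.05, against 251 probe sets overall (3.42%). Estimates were positive for 38 and negative for 24 member probe sets, with a median of 0.04 log2 units per 10 years beside 0.00 over all. Without female line 4 the split was 47 and 15 with a median of 0.14, without female line 5 it was 30 and 32 (-0.01), and without male line 5 it was 29 and 33 (-0.01). NDUFA6, an accessory subunit of complex I, had the lowest p. It read 266 at 2 years, 432 at 4, 245 at 9, and 191 and 118 at 20 years in the female lines. The male lines read 311 at 2 years, 359 at 4, 114 at 12, 255 at 17 and 234 at 19 years. Both of the youngest animals of each sex read above every older animal of that sex. The slope was -0.53 ± 0.23 (SE) per 10 years, with an unadjusted limma p of 0.0394 and an adjusted p of 0.999.

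ATP5MJ had a slope of -0.61 ± 0.28 (SE) per 10 years, with an unadjusted limma p of 0.0472 and an adjusted p of 0.999. It read 718 at 2 years, 693 at 4, 486 at 9, and 556 and 108 at 20 years in the female lines. In the male lines it read 421 at 2 years, 284 at 4, 298 at 12, 176 at 17 and 379 at 19. The female line at 108 was close to the floor, and the slope was -0.23 without it. The next members were COX6A2 at -0.28 ± 0.18, COX7A2L at -0.23 ± 0.16 and NDUFB5 at -0.20 ± 0.16 per 10 years. COX7A2L was at -0.13 without male line 5, NDUFB5 at -0.13 without female line 4, and COX6A2 at -0.16 with a floor of 200.

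**Figure D3:**
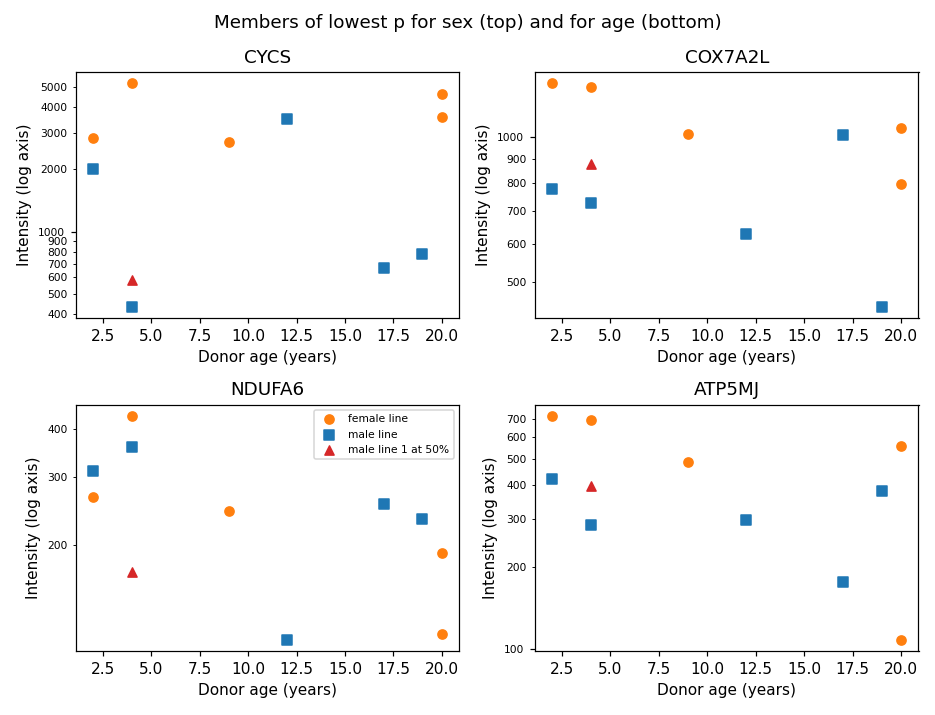
Intensity on a log axis against donor age in years for the members of lowest p for sex (CYCS, COX7A2L) and for age (NDUFA6, ATP5MJ); circles are female lines, squares male lines and triangles the 50% confluence culture. Male CYCS values reach from 432 to 3496, and the lowest ATP5MJ value, 108, belongs to a female line aged 20 years.

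Whether age slopes differed between the sexes was tested as an interaction, the male minus the female slope per 10 years. The limma fit called 0 members, against 1 probe set overall (0.0136%), and 0 members had an unadjusted p under 0.05, against 355 probe sets overall (4.84%). The estimates were positive for 50 and negative for 12 member probe sets, with a median of 0.25 beside 0.01 over all. Without female line 4, aged 20 years and low for most members, 37 were positive and the median was 0.07. Without male line 5, aged 19 years, 40 were positive and the median was 0.15, and with array weights 41 and 0.10. Among ribosomal protein genes, 45 of 47 estimates were positive too, with a median of 0.26. The members of lowest p were NDUFB8, an accessory subunit of complex I, at 0.64 ± 0.33 (SE), UQCRC2 at 0.83 ± 0.44, UQCRB, a small subunit of complex III, at 0.81 ± 0.43, COX6C at 0.59 ± 0.34 and NDUFC1 at 0.52 ± 0.30. The lowest of their unadjusted p-values was 0.0756, and their adjusted p-values were 0.973. UQCRC2 was at 0.51 without male line 1 and 1.27 without male line 5, and without male line 4 UQCRB was at 0.47 and COX6C at 0.36.

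UQCRB shows the values behind such an estimate. It read 3939 at 2 years, 2500 at 4, 4244 at 9, and 1541 and 2989 at 20 years in the female lines. In the male lines it read 2798 at 2 years, 1855 at 4, 1801 at 12, 5613 at 17 and 2846 at 19. The lowest value was in female line 4 and the highest in male line 4, which was also the line with the ACTB control ratio of 2.27. The part of that ratio in the result was not tested.

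At 50% confluence most subunits of complexes III, IV and V read higher than in the standard culture of the same line. There is 1 culture of each kind, so these are differences between 2 arrays without a replicate check or test. Of the 56 member genes above the floor in both cultures, 45 were higher and 11 lower at 50% confluence, with a median log2 difference of 0.32. Over all 4497 genes above the floor in both, 49.9% were higher and the median was 0.00. More than 2-fold higher were 9 members, beside 4.71% of all genes, and more than 2-fold lower was 1 member, NDUFA6, beside 4.67%. COX6A2, at 302 in the standard culture and at the floor at 50% confluence, did not enter these counts. Set against all 10 standard lines, the 50% confluence culture lay above every line for 11 members (9.98% of all genes) and below every line for 1 member (7.29%). The 18S ribosomal RNA controls read 1508 to 2611 in this culture and at most 313 in any line. The ACTB 3' to 5' ratio was 1.42 in the standard culture of male line 1 and 0.669, the lowest of the 11 arrays, at 50% confluence, and the GAPDH ratio was 1.17 and 0.815. The part of these in the result was not tested.

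With COX6A2 left out, complex IV had 11 of 12 genes higher with a median of 0.63. Complex III had 6 of 6 higher with a median of 0.55, and complex V 11 of 11 with a median of 0.31. In complex II, 1 of 3 genes was higher and the median was -0.17. Under quantile normalization the complex IV median was 0.47 with 10 genes higher. Median centring left 5 of 6 complex III genes higher and 0 of 3 complex II genes. In complex I, 15 of 23 were higher with a median of 0.22. Of its 16 accessory subunits 13 were higher, with a median of 0.30. Of its 5 core subunits NDUFS7 was higher, NDUFS1 and NDUFV1 lower, and NDUFS3 and NDUFV2 nearly level, at 1033 and 1032 and at 1481 and 1470, and the median was -0.01. Over the scalings the medians ran from 0.26 to 0.33 for accessory and from -0.05 to 0.00 for core subunits, and the difference between these was not tested. The standard culture of male line 1 was itself low in 2 complexes against the 10 lines. Its median deviation from the genes' own means was -0.24 in complex IV, with 9 of 13 genes below, and -0.25 in complex III, with 3 of 6 below. It was -0.06 in complex V and -0.03 in complex I. The part of this starting level in the differences was not tested.

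**Figure D4:**
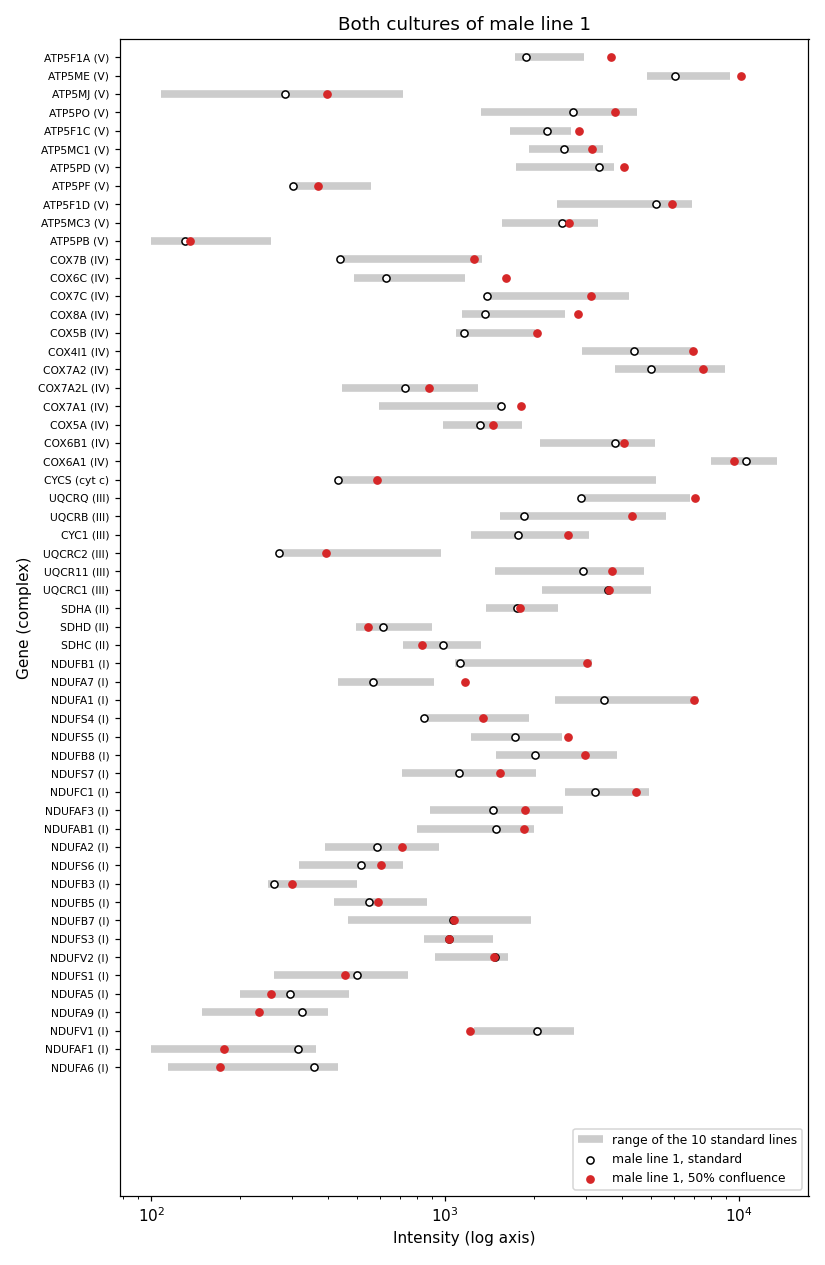
Intensity on a log axis for the 56 members above the floor in both cultures of male line 1, by complex; open circles are the standard culture, filled circles the 50% confluence culture, and grey bars the range of the 10 standard lines. Filled circles lie to the right of open ones in 45 of the 56 rows, and 11 lie beyond the upper end of the bar.

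In complex IV, COX7B, a small subunit of the enzyme, went from 440 in the standard culture to 1248 at 50% confluence, a log2 difference of 1.504. COX6C went from 628 to 1615 (1.36), COX7C from 1384 to 3143 (1.18) and COX8A from 1361 to 2826 (1.05). For COX6C and COX8A the 50% confluence value exceeded all 10 lines, whereas COX7B and COX7C stayed inside the range of the lines. The standard culture of male line 1 was itself the lowest of the 10 lines for COX7B and COX7C. COX5B went from 1154 to 2051 and the muscle form COX7A1 from 1552 to 1813, both above all lines. COX6A1 was the complex IV gene that read lower, from 10549 to 9615, and COX6A2 went from 302 to the floor.

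In complex III, UQCRQ went from 2894, the lowest of the 10 lines, to 7094, above all of them, a log2 difference of 1.29. UQCRB went from 1855 to 4305, a difference of 1.21, within the range of the lines. CYC1 went from 1763 to 2606 through its brighter probe set, but from 1944 to 1887 through the other, so its probe sets disagree. UQCRC2 went from 271 to 392 and remained under all other lines except female line 4, at 352. Cytochrome c itself went from 432 to 585.

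In complex V, ATP5F1A went from 1889 to 3670, a log2 difference of 0.96, and lay above all 10 lines, whose highest value was 2969. ATP5F1C went from 2219 to 2855 and ATP5ME from 6046 to 10162, both above all lines. The probe sets of ATP5ME gave differences of 0.75 and 0.98, and those of COX5B 0.83 and 0.67. ATP5F1D, the delta subunit, had probe sets that disagreed in sign, at 0.17 and -0.17. ATP5PD, subunit d of the stalk that holds the catalytic head in place, was above all lines as well, at 4065.

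In complex I, the largest differences belonged to accessory subunits: NDUFB1 went from 1124 to 3025 (1.43), NDUFA7 from 570 to 1166 (1.03) and NDUFA1 from 3478 to 7024 (1.01). NDUFA7 was above all 10 lines, as was NDUFS5 at 2619. The lower readings were also in complex I. NDUFA6 went from 359 to 171 (-1.07), the assembly factor NDUFAF1 from 315 to 177 (-0.83), the NADH-binding NDUFV1 from 2058 to 1218 (-0.76) and NDUFA9 from 325 to 233 (-0.48). The NDUFV1 value lay below all 10 lines, of which male line 4 was lowest at 1252. SDHC followed in complex II, from 980 to 835 (-0.23). Subunits of a single enzyme thus read in both directions between the cultures.

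Other gene groups gave a frame for these differences. Ribosomal protein genes were higher at 50% confluence in 32 of 47 cases with a median of 0.15, or in 26 with a median of 0.09 under quantile normalization. Proteasome subunits were higher in 13 of 30 and glycolytic enzymes in 6 of 15, each with a median of -0.05. Nuclear genes listed for assembly of the complexes were higher in 6 of 7, with a median of 0.24. Among them SCO2, which delivers copper to complex IV, went from 177 to 361. The gene that read lower, LRPPRC, went from 249 to 141. It stabilises mitochondrial messenger RNA and is not itself an assembly factor. Of the transcriptional and mitochondrial DNA regulators, 0 of 5 were higher, with a median of -0.26. YY1 went from 401 to 243 and MYC from 1033 to 846. These are transcription factors with known target sites in nuclear genes for mitochondrial proteins.

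Enzymes of the citrate cycle and pyruvate dehydrogenase, which supply NADH and succinate, were higher in 8 of 14 with a median of 0.04, or in 6 of 14 with a median of 0.00 after median centring. With a floor of 200, 8 of the 9 that remained were higher, with a median of 0.13. IDH2, the mitochondrial NADP-dependent isocitrate dehydrogenase, went from 399 to 881, and DLST, a component of the 2-oxoglutarate dehydrogenase complex, from 755 to 261. Genes that deliver electrons to ubiquinone by other routes or that make ubiquinone were higher in 3 of 5. The electron-delivering ETFA (506 to 520), ETFB (851 to 1506) and ETFDH (193 to 385) read higher. COQ2 (181 to 117) and COQ9 (903 to 820), which act in ubiquinone synthesis, read lower. Membrane carriers were higher in 5 of 10. The phosphate carrier SLC25A3, which supplies the ATP synthase, went from 5905 to 8955. The ADP/ATP carriers read in opposite directions, with SLC25A4 from 197 to 476 and SLC25A5 from 679 to 352.

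Over the 10 lines the limma fits called 0 of 8 tested genes on the assembly list and 7 regulators for sex, age or their interaction. They likewise called 0 of 14 citrate cycle genes, 7 genes of electron delivery or ubiquinone synthesis and 11 carriers. At an unadjusted p under 0.05 there was 1 carrier for age, SLC25A12, at 0.0356, and 1 for the interaction, UCP3, at 0.0381. Neither passed correction.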

How the data were processed

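The deposited tables hold linear intensities as whole numbers, 1 for each probe set of an array. The authors' probe summarisation and array scaling are not given in the sources used here. Trimmed means of the arrays were alike, so the deposited scaling was kept. Intensities were floored at 100 and converted to log2. The 67 control probe sets were left out, and 7333 of the 12558 others, above 100 in at least 5 of 11 arrays, were tested. Probe sets were named from GEO's platform annotation. A gene was represented by the probe set of highest mean log2 intensity, and 3 probe sets with several symbols, 1 of them by the rule, were left out.

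Sex, age and sex by age were fitted on the 10 standard lines with lmFit and eBayes (trend) in limma 3.58.1 (R 4.3.3), two-sided, with Benjamini-Hochberg adjustment over all 7333 probe sets, and tested on simulated data. The 50% confluence culture entered no test. Lines were numbered in accession order within each sex, so numbers pair nothing.

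Values are given for the 5 members of lowest p in each fit, the 10 largest increases and 5 largest decreases between cultures, the 5 largest and 5 smallest SDs, the highest median of each complex, CYCS and the isoform sets. Other genes were named after their values were seen. Members and lists were chosen with earlier results of these data known. Alternatives covered scaling, floor, filter, weights, covariates and each left-out line. Promoter and protein sequences were not analysed here.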

Additional observations from a re-analysis of the deposited data

Results flagged for a closer look

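In 4 of the 114 sets of 5 lines examined, 57 genes in each sex, 1 line stood apart by Dixon's criterion for its distance from the nearest other line. Chance gives this in about 1 of 20 sets, so the count was no higher than chance gives. The criterion was not applied to genes outside the members. UQCRC2, a core protein of complex III, read 352 in female line 4, beside 626, 601, 605 and 648 in the other female lines. ATP5MJ, the small ATP synthase proteolipid, read 108 in female line 5, close to the floor, beside 486, 718, 693 and 556. In male line 3, SDHD, a membrane anchor of complex II, was high at 889, beside 615, 594, 574 and 613 in the other male lines. In that same line ATP5MC3, 1 of the genes for subunit c of the ATP synthase, was low at 1650, beside 2490, 2789, 2686 and 2617.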

How the results depend on the processing

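No member was called for sex, age or their interaction under any alternative run. The counts of members with an unadjusted p under 0.05 ran from 1 to 4 for sex and from 0 to 4 for age and for the interaction, and the lowest adjusted p-values were 0.160, 0.741 and 0.443. The number of members more than 2-fold lower at 50% confluence, 1 in the values reported, was 0 with a floor of 200, 0 with a pseudocount of 50, and 2 when genes above the floor in either culture were kept, since COX6A2 then entered. The number more than 2-fold higher ran from 7 to 9 and the median difference from 0.28 to 0.33. The members' median pairwise r ran from 0.22 to 0.33 over scalings and left-out lines, which were chosen after seeing the data, as were those of the line medians and of the counts by complex and list. No paired analysis was possible because line numbers were given in accession order and mark different animals in the 2 sexes. With 5 lines per sex and 1 culture at 50% confluence, the number of arrays limits the precision, and values at the floor give only an upper bound.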
